A study of Mus musculus with 21 samples.

Results

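The receptor for bacterial lipopolysaccharide (LPS), TLR4, works through a small set of partner proteins, and the transcripts of 10 of them were followed here. They were the co-receptors Cd14 and Ly96, the adaptors Myd88, Ticam1 and Ticam2, the kinases Irak1, Irak2 and Irak4, the related inhibitor Irak3 and the ubiquitin ligase Traf6. The 10 genes were chosen by role from the 25067 named genes of the deposited count table, each gene standing for its transcript of highest mean count, and all 10 were among the 12529 genes that passed the expression filter. The libraries came from bone marrow-derived macrophages of male C57Bl6/J mice aged 6 to 12 weeks, grown for 7 days with L929-conditioned medium as the source of growth factor. Cells were WT or labelled as lacking Nur77, the nuclear receptor encoded by Nr4a1, and were left at 0 h or held in 100 ng/ml LPS for 4 or 18 h. Each time had 4 WT and 3 labelled-KO libraries, 21 in all. For the labelled-KO libraries the genotype is entered only as cre, and the sources used here do not give whether the gene was deleted in the germline or in some cells only. The labels do not say that the numbered libraries came from separate mice, so p-values reflect only how these libraries vary, and that variation may be technical.

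CD14 and MD-2, the protein made by Ly96, pass LPS to TLR4 at the cell surface, and the receptor then recruits adaptors. MyD88 assembles IRAK4, IRAK1 and IRAK2 into a complex that activates TRAF6 and leads to NF-κB and MAP kinases. TRAM (Ticam2) brings TRIF (Ticam1) to the receptor at endosomes, which leads to type I interferon. IRAK-M, the protein made by Irak3, dampens the MyD88 arm and is known for its part in the tolerance that macrophages develop to repeated LPS.

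The genes kept held 12301504 to 29650081 counts per library. Levels are given in CPM, a gene's counts scaled to a common library total, with library sizes adjusted by the trimmed mean of M-values (TMM), and a gene was called when its Benjamini-Hochberg adjusted p in edgeR's quasi-likelihood test was under 0.05. Nr4a1 did not separate the genotypes at 0 h, at 14.7 ± 1.27 CPM in WT (SD, n = 4) and 12.3 ± 0.114 CPM in labelled-KO libraries (SD, n = 3; log2 difference -0.25, edgeR adjusted p = 0.75), so it does not check the genotype label. It was lower in labelled-KO libraries at 4 h (log2 difference -1.77, adjusted p = 0.04) and higher at 18 h (1.35, adjusted p = 0.023), at levels of 7.25 CPM or less in every library of those times. At 4 h the WT libraries spread widely, at 3.11 ± 2.78 CPM (SD, n = 4) and from 1.3 to 7.25 CPM. The labelled-KO libraries held 0.531 to 1.21 CPM at that time, just below the lowest WT library. All 10 macrophage markers listed were present, with a summed level of 12951 to 24393 CPM over the libraries, while B and T lymphocyte markers summed to 0.925 CPM or less. Labelled-KO libraries carried more monocyte marker RNA at every time, without overlap (summed level 365 to 494 CPM in WT and 544 to 638 CPM in labelled-KO libraries at 0 h, 579 to 669.8 and 737 to 831 CPM at 4 h, 299.8 to 349 and 491 to 559.9 CPM at 18 h). Of the 7 monocyte markers tested, 3 were called higher in labelled-KO cells at 0 h, 1 at 4 h and 3 at 18 h. Of 10 stromal markers tested, none was called between genotypes at 0 or 4 h and 9 were higher in labelled-KO cells at 18 h. Their median log2 difference was above 0 at each time, at 2.03, 2.64 and 3.63 at 0, 4 and 18 h. The summed level of the 12 stromal markers listed was 14.2 to 225 CPM in WT and 174 to 361 CPM in labelled-KO libraries at 0 h. At 4 h it was 38.9 to 134 and 90.4 to 726 CPM. At 18 h it was 20.6 to 70.0 CPM in WT and 54.5 to 1037 CPM in labelled-KO libraries, the highest in the library numbered 4. Neutrophil markers were higher in labelled-KO cells at 0 h (8 of 9 called, summed level 28.3 to 49.0 CPM in WT and 79.2 to 135 CPM in labelled-KO libraries) and at 18 h (6 of 9), and at 4 h 1 of the 9 was called. Of 10 cell cycle genes, 9 were lower in labelled-KO cells at 0 h (286 to 379 and 177 to 188 CPM), 4 were lower at 4 h, and 1 was higher and 1 lower at 18 h. The WT library numbered 1 stood apart at 4 h, with a chi-square per gene of 41.33 to 66.16 against the other WT libraries of that time, which gave 6.65 to 12.58 among themselves, and less so at 0 h (28.3 to 33.18 against 7.99 to 13.61). Leaving it out at 4 h changed 1 call among the 10 transcripts, the WT change of Ticam2 from 0 to 4 h, and values without it are given beside Cd14, Ticam2, Irak3 and Irak4. In these bulk libraries fewer cells of a type and less RNA per cell cannot be told apart.

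Nearly every transcript of the set changed between 0 h and the LPS times in both genotypes. The series lists no library without LPS at 4 or 18 h. In these changes LPS and time in culture therefore cannot be told apart. At 4 h against 0 h, 7 of the 10 were higher and 3 lower in WT cells, and 7 were higher and 3 lower in labelled-KO cells, with all 10 called in the same direction in both. The background was high, since 78.1% of all genes tested were called in WT cells and 75.0% in labelled-KO cells. At 18 h against 0 h, 6 were higher and 3 lower in WT cells (71.1% of all genes called) and 7 higher and 3 lower in labelled-KO cells (73.0%). Between 4 and 18 h, 3 rose and 6 fell in WT cells (71.7%) and 3 rose and 7 fell in labelled-KO cells (65.4%). The members' shares called were above those of all genes, with a median log2 change at 4 h of 1.19 in WT cells against -0.17 over all genes tested, and of 0.83 against -0.14 in labelled-KO cells. These describe only 10 genes chosen by role, and the set was not tested against all genes. No member fell below 11.4 CPM in any library, while the genes tested included lower ones. Shares among genes of a similar level were not compared.

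Fewer transcripts differed between genotypes, 1 at 0 h, 2 at 4 h and 7 at 18 h. At 0 h only Irak4 was called, lower in labelled-KO cells, where 3.98% of all genes were called. At 4 h Irak4 and Irak3 were lower (5.56% of all genes called). At 18 h Cd14, Ticam1, Irak2 and Traf6 were higher and Ticam2, Irak1 and Irak4 lower, 7 of 10 against 32.2% of all genes. The difference between genotypes in the LPS change itself, tested as an interaction, was called for none of the 10 at 4 h (0.798% of all genes), where edgeR at an unadjusted p under 0.05 gave only Irak3 and neither DESeq2 nor limma-voom called any. At 18 h against 0 h the interaction was called for Cd14 and Irak2 (larger) and Ticam2 (smaller), against 17.6% of all genes. From 4 to 18 h it was called for Cd14, Irak2 and Irak3 (larger) and Ticam2 (smaller), against 10.8% of all genes. The plot of every library's level shows these changes gene by gene.

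**Figure D1:**
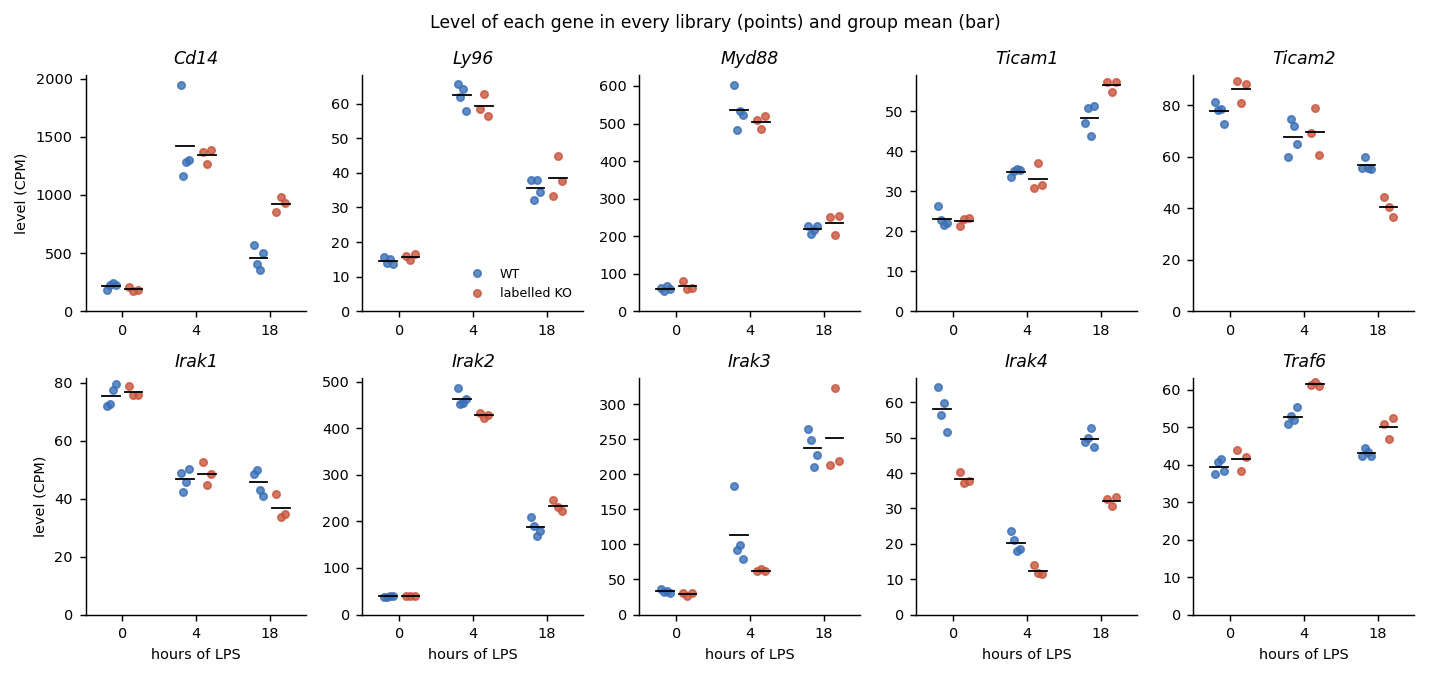
Level of each of the 10 transcripts in CPM (vertical axis, from 0) at 0, 4 and 18 h of LPS (horizontal axis), with a point for each WT (blue, n = 4) and labelled-KO (red, n = 3) library and a bar at the group mean. Cd14, Ly96, Myd88 and Irak2 peaked at 4 h, Ticam1 and Irak3 were highest at 18 h, and Irak4 was lowest at 4 h and lower in every labelled-KO library than in any WT library of its time.

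Of the co-receptors, Cd14, the surface protein that hands LPS to MD-2, rose steeply and stayed high for longer in labelled-KO cells. The WT libraries held 183, 229.9, 243 and 226 CPM of Cd14 at 0 h, 1946, 1160.5, 1279 and 1300.3 CPM at 4 h, and 566, 409.6, 352 and 503 CPM at 18 h, in the order of their numbers 1 to 4. The labelled-KO libraries held 207, 178 and 181 CPM at 0 h, 1368, 1267 and 1384 CPM at 4 h, and 857, 986 and 930.1 CPM at 18 h, in the order of their numbers 2 to 4. The genotypes overlapped at 0 and 4 h and were apart at 18 h, when every labelled-KO library was above every WT library. Cd14 rose by a log2 change of 2.69 (SE 0.16) at 4 h in WT cells and 2.83 (SE 0.18) in labelled-KO cells (adjusted p = 7.1e-13 and 5.2e-12). Without the WT library numbered 1 at 4 h the WT change was 2.5 (adjusted p = 1.3e-13).

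The mean level of Cd14 at 18 h was 458 ± 95.5 CPM in WT cells (SD, n = 4) and 924 ± 64.9 CPM in labelled-KO cells (SD, n = 3), a log2 difference of 1.01 (SE 0.16, edgeR adjusted p = 6.6e-05). Of the rise in mean level between 0 and 4 h, 19.8% was left at 18 h in WT cells and 63.9% in labelled-KO cells. The LPS change differed between genotypes by 1.24 (SE 0.22, adjusted p = 0.00083) at 18 h against 0 h and by 1.1 (SE 0.22, adjusted p = 0.0032) from 4 to 18 h. The latter was 0.91 (adjusted p = 0.0029) without the WT library numbered 1 at 4 h. Neutrophil markers also stood higher in labelled-KO libraries at 18 h, at a summed 328 to 462 CPM against 190.2 to 277 CPM in WT, and dendritic cell markers at 30.6 to 35.8 against 14.2 to 17.8 CPM (4 of 5 called). The part of these cells, and of the monocyte and stromal markers given above, in the Cd14 difference was not tested. Leaving out the library of highest stromal marker level in each group gave a log2 difference of 0.9 (adjusted p = 0.0041).

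Ly96, which encodes the LPS-binding co-receptor MD-2, rose at 4 h and came partly back, with no called difference between genotypes. The WT means were 14.6 ± 0.883, 62.4 ± 3.45 and 35.6 ± 2.7 CPM at 0, 4 and 18 h (SD, n = 4), and the labelled-KO means 15.7 ± 0.923, 59.3 ± 3.26 and 38.6 ± 5.99 CPM (SD, n = 3). The rise at 4 h was 2.09 on the log2 scale in WT cells and 1.91 in labelled-KO cells (adjusted p = 2.3e-15 and 2.1e-13). The log2 difference between genotypes at 18 h was 0.12, with a 95% interval of -0.06 to 0.3 (adjusted p = 0.35), and the libraries of the genotypes overlapped at every time. Per kilobase of transcript, the level of Cd14 was 4.97 ± 0.998 times that of Ly96 in WT cells at 18 h (SD, n = 4) and 9.32 ± 0.782 times in labelled-KO cells (SD, n = 3).

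Of the adaptors, Myd88, which links TLR4 to the IRAK kinases, rose most. The WT libraries held 61.7, 55.2, 67.1 and 59.0 CPM of Myd88 at 0 h, 603, 482, 532 and 524 CPM at 4 h, and 228, 205, 217 and 228 CPM at 18 h. The labelled-KO libraries held 81.1, 60.4 and 62.7 CPM at 0 h, 510.1, 485 and 520.2 CPM at 4 h, and 250.5, 202 and 254 CPM at 18 h. The times did not overlap within a genotype, and the genotypes overlapped at each time. The log2 change at 4 h was 3.14 (SE 0.1) in WT cells and 2.89 (SE 0.12) in labelled-KO cells (adjusted p = 5.1e-17 and 3.1e-15), and Myd88 stayed 3.62-fold and 3.46-fold above its 0 h level at 18 h. The genotypes differed at 18 h by a log2 value of 0.1, with a 95% interval of -0.1 to 0.3 (adjusted p = 0.49).

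The promoter of Myd88 is printed because it is, with that of Irak1, one in which a searched motif was found. Promoter windows of 300 bases, from 250 before to 50 after a start site, were taken from RefSeq on GRCm38.p6 for 7 of the 10 genes, 9 windows in all. Each was searched on both strands for the κB motif, for the interferon-stimulated response element (ISRE, here GAAA, any 2 bases, GAAA), for AP-1 (TGANTCA), for the Nur77 element NBRE (AAAGGTCA) and for CRE (TGACGTCA), of which none overlapped another in these windows. Of the 32851 promoter windows listed for all genes, 8.46% held κB, 3.44% ISRE, 7.81% AP-1, 1.51% NBRE and 1.79% CRE. Myd88 (chr9:119339969-119340268, minus strand) held an ISRE match, in capitals, that begins at -40 from the start site:
Myd88 promoter: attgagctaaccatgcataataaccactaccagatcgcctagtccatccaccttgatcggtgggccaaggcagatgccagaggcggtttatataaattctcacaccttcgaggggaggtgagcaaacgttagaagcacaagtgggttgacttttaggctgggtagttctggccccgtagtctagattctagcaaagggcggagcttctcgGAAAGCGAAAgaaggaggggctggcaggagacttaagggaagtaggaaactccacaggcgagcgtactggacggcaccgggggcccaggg
Irak1 (chrX:74023872-74024171, minus strand) held a κB match, in capitals, that reads as κB on both strands and begins at -18:
Irak1 promoter: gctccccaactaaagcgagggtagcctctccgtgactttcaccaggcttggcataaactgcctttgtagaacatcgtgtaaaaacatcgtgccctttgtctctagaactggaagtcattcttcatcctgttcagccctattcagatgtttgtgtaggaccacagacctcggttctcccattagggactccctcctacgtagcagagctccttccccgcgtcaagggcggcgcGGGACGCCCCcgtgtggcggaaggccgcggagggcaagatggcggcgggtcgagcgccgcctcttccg
The windows of Irak2 (chr6:113638217-113638516, plus strand), whose transcript rose most at 4 h of LPS, and Irak4 (chr15:94543410-94543709, plus strand), whose transcript fell most at 4 h, are shown for comparison. Neither held any of the searched motifs within these 300 bases:
Irak2 promoter: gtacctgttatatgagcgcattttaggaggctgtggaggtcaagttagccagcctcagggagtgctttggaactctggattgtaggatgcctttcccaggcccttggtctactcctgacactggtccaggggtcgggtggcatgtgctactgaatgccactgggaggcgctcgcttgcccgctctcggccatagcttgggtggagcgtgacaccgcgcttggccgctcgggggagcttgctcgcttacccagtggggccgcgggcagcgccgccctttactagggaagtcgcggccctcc
Irak4 promoter: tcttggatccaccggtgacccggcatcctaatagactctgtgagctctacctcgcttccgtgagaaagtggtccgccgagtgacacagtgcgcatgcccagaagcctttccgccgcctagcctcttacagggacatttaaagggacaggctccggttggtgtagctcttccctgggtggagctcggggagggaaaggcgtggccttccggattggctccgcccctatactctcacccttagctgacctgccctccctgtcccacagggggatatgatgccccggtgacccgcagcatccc
A match is a string of letters and not a measured binding site.

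Ticam1, which encodes the adaptor TRIF, rose in steps and was highest at 18 h. Its WT means were 23.2 ± 2.16, 34.9 ± 0.952 and 48.2 ± 3.56 CPM at 0, 4 and 18 h (SD, n = 4), and its labelled-KO means 22.5 ± 1.05, 33.1 ± 3.43 and 56.5 ± 1.41 CPM (SD, n = 3). The log2 change from 0 to 18 h was 1.06 in WT cells and 1.33 in labelled-KO cells (adjusted p = 4.8e-11 and 1.6e-11). At 18 h the WT libraries held 47.0, 50.9, 43.8 and 51.3 CPM and the labelled-KO libraries 57.4, 54.9 and 57.3 CPM. These did not overlap, and the log2 difference of 0.23 (SE 0.08) had an adjusted p of 0.036. It lost the call in 9 of 16 alternatives, among them without the WT libraries numbered 1 (0.21, adjusted p = 0.098) and 3 (0.18, adjusted p = 0.1) and without the labelled-KO libraries numbered 2 (0.22, adjusted p = 0.091) and 4 (0.22, adjusted p = 0.11).

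Ticam2, which encodes the bridging adaptor TRAM, went the other way and fell further in labelled-KO cells. At 0 h the WT libraries held 81.3, 78.3, 78.6 and 72.7 CPM and the labelled-KO libraries 89.4, 81.0 and 88.4 CPM. At 18 h the WT libraries held 55.6, 60.1, 55.7 and 55.4 CPM and the labelled-KO libraries 44.5, 40.4 and 36.8 CPM. The genotypes overlapped at 0 h, and at 18 h every labelled-KO library was below every WT library. The log2 change from 0 to 18 h was -0.45 in WT cells and -1.09 in labelled-KO cells (adjusted p = 4.3e-05 and 2e-09), an interaction of -0.63 (SE 0.13, adjusted p = 0.0019). The difference between genotypes at 18 h was -0.49 (SE 0.09, adjusted p = 0.0005), and from 4 to 18 h the interaction was -0.52 (SE 0.13, adjusted p = 0.012), or -0.47 (adjusted p = 0.019) without the WT library numbered 1 at 4 h.

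The early part of the fall of Ticam2 was small. The mean at 4 h was 67.9 ± 6.8 CPM in WT cells (SD, n = 4) and 69.8 ± 9.03 CPM in labelled-KO cells (SD, n = 3), within the range of the other genotype. The log2 change from 0 to 4 h in WT cells was -0.2 (adjusted p = 0.033) and lost the call in 9 of 18 alternatives, for example -0.14 (adjusted p = 0.12) without the WT library numbered 1 at 4 h and -0.17, -0.2 and -0.2 (adjusted p = 0.089, 0.06 and 0.064) without the WT libraries numbered 1, 2 and 3 at 0 h. In labelled-KO cells it was -0.31 (adjusted p = 0.0062), and -0.22 (adjusted p = 0.059) without the library numbered 4 at 4 h. The time changes of both genotypes are set side by side in the plot of log2 fold changes.

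**Figure D2:**
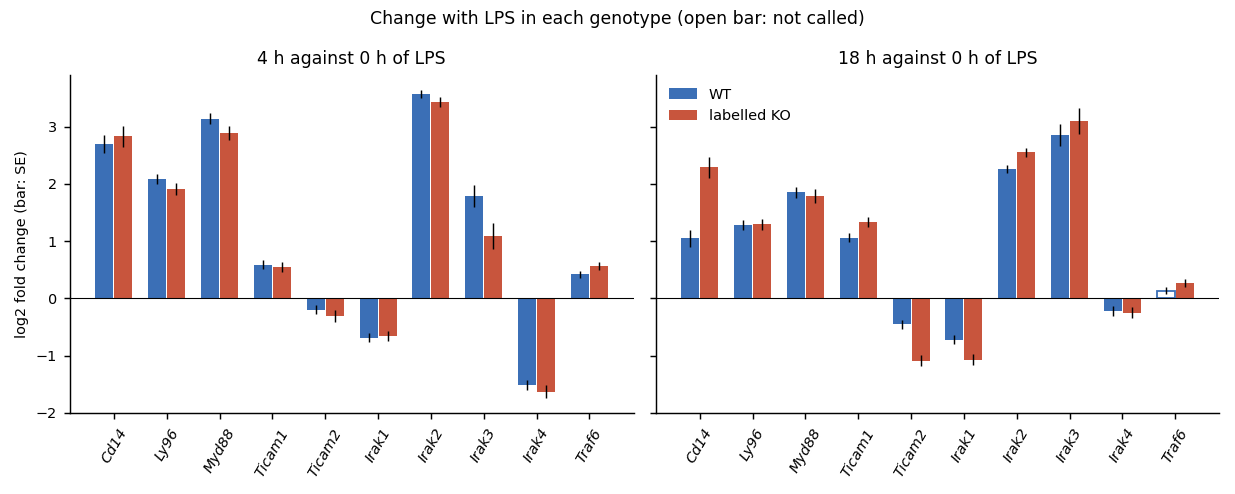
Log2 fold change (vertical axis) of the 10 transcripts at 4 h (left) and 18 h (right) of LPS against 0 h in WT (blue, n = 4) and labelled-KO cells (red, n = 3), with standard errors from edgeR's quasi-likelihood fit, and an open bar where the change was not called. At 18 h the bars of Cd14 stand at 1.05 in WT and 2.29 in labelled-KO cells and those of Ticam2 at -0.45 and -1.09, while those of Myd88 and Ly96 lie close together.

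The 4 IRAK genes took 4 different courses. Irak4, the kinase that starts the complex, was the only transcript of the 10 that differed between genotypes at every time. The WT libraries held 64.3, 56.4, 59.9 and 51.6 CPM of Irak4 at 0 h, 23.6, 21.2, 17.9 and 18.5 CPM at 4 h, and 48.9, 49.8, 52.8 and 47.5 CPM at 18 h. The labelled-KO libraries held 40.2, 37.2 and 37.7 CPM at 0 h, 14.1, 11.7 and 11.4 CPM at 4 h, and 32.6, 30.7 and 33.1 CPM at 18 h. No labelled-KO library reached a WT library of the same time. The log2 difference was -0.6 (SE 0.09, edgeR adjusted p = 0.00025) at 0 h, -0.72 (SE 0.11, adjusted p = 0.0003) at 4 h and -0.63 (SE 0.1, adjusted p = 5.3e-05) at 18 h. Of the 12529 genes tested, 61 were called lower in labelled-KO cells at all 3 times, or 0.487%, and 37 higher. At 4 h the call was lost, at -0.63 with an adjusted p of 0.051, when the library of highest stromal marker level was left out of each group. Without the WT library numbered 1 the 4 h difference was -0.63 (adjusted p = 0.00072). Marker levels given above also differed between genotypes. Monocyte marker RNA was higher in labelled-KO libraries at every time. Neutrophil markers were called higher for 8, 1 and 6 of 9 at 0, 4 and 18 h. The median log2 difference of the cell cycle genes was -1.47, -0.67 and 0.08 at those times. The part of these marker differences in the Irak4 difference was not tested.

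Irak4 was lower at 4 h of LPS than at 0 h in both genotypes, and most of the fall was made up by 18 h. The log2 change at 4 h was -1.51 (SE 0.09) in WT cells and -1.63 (SE 0.11) in labelled-KO cells (adjusted p = 8.8e-13 and 1.2e-11), and the interaction at 4 h was -0.12 with a 95% interval of -0.39 to 0.16 (adjusted p = 0.85). From 4 to 18 h it rose by 1.29 and 1.38 on the log2 scale. The remaining difference from 0 h, -0.22 in WT cells (adjusted p = 0.022) and -0.25 in labelled-KO cells (adjusted p = 0.028), lost the call in 4 of 18 and 5 of 16 alternatives. In WT cells these left out the 0 h library numbered 1 (-0.16, adjusted p = 0.1) or 3 (-0.21, 0.056) or the 18 h library numbered 1 (-0.21, 0.058) or 4 (-0.2, 0.06), and in labelled-KO cells they included leaving out the 0 h library numbered 2 (-0.21, 0.1) or the 18 h library numbered 3 (-0.22, 0.088).

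Irak4 and Nr4a1 lie on the same chromosome, a fact looked up after the Irak4 values were seen. On mm10 Irak4 spans chr15:94543613-94568317 and Nr4a1 chr15:101253902-101274795, 6.69 Mb apart. Of the 69 genes tested that lie between them, 11 (15.9%) were called between genotypes at 0 h, 15 (21.7%) at 4 h and 31 (44.9%) at 18 h, where 3.98%, 5.56% and 32.2% of all genes were called. They went in both directions, with 7 of the 11 lower in labelled-KO cells at 0 h, 5 of the 15 at 4 h and 15 of the 31 at 18 h. The nearest tested neighbours of Irak4 did not share its pattern of calls. Pus7l, upstream of it, was not called at 0 h (log2 difference 0.12, adjusted p = 0.84) or 4 h (-0.32, 0.63) and was lower at 18 h (-0.7, 0.031), and Twf1, downstream, was called at no time (0.13, -0.08 and 0.19 at 0, 4 and 18 h, with adjusted p of 0.44, 0.65 and 0.068). Pus7l stood low, at a mean of 3.79 CPM in WT and 4.13 CPM in labelled-KO cells at 0 h. Its means were 0.987 and 0.822 CPM at 4 h and 3.4 and 2.11 CPM at 18 h. A missing call at such levels says little. The part of the chromosome region in the Irak4 difference was not tested.

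Irak2, the kinase that prolongs the MyD88 signal, rose more than any other transcript of the set at 4 h. The WT libraries held 38.4, 37.6, 40.2 and 40.5 CPM at 0 h, 486, 452, 454 and 462 CPM at 4 h, and 210.1, 191, 168 and 179.7 CPM at 18 h. The labelled-KO libraries held 39.6, 40.6 and 39.1 CPM at 0 h, 433, 423 and 428 CPM at 4 h, and 245, 231 and 222 CPM at 18 h. Labelled-KO libraries were all below WT libraries at 4 h and all above them at 18 h. The rise at 4 h was 11.8-fold in WT cells and 10.8-fold in labelled-KO cells (log2 change 3.57 and 3.43, adjusted p = 3.1e-20 and 7.8e-19). The genotype difference at 4 h was not called (-0.11, 95% interval -0.25 to 0.02, adjusted p = 0.38), and at 18 h it was 0.31 (SE 0.07, adjusted p = 0.0018). The share of the 4 h rise left at 18 h was 34.9% in WT cells and 49.7% in labelled-KO cells.

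The interaction of Irak2 from 4 to 18 h was 0.43 (SE 0.1, adjusted p = 0.0078), and it lost the call without the libraries of highest stromal marker level (0.42, adjusted p = 0.093). That of 18 h against 0 h was 0.29 (SE 0.1, adjusted p = 0.049) and lost the call in 18 of 24 alternatives, including 13 of the 14 in which a single library of the 4 groups was left out (every such library but the WT library numbered 1 at 18 h), where values ran from 0.24 to 0.32. With same-numbered libraries of a genotype held as a replicate block it was 0.29 with an adjusted p of 0.055.

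Irak3, which encodes the inhibitor IRAK-M, was the late riser of the family. The WT libraries held 35.9, 31.9, 33.1 and 30.9 CPM at 0 h, 184, 91.8, 98.6 and 79.9 CPM at 4 h, and 265, 249, 211 and 228 CPM at 18 h. The labelled-KO libraries held 30.5, 26.7 and 31.2 CPM at 0 h, 62.2, 64.3 and 61.4 CPM at 4 h, and 213, 323 and 219 CPM at 18 h. At 4 h every labelled-KO library was below every WT library, of which the library numbered 1 was far above the other 3, and at 18 h the genotypes overlapped. The log2 change from 0 to 18 h was 2.85 (SE 0.19) in WT cells and 3.1 (SE 0.23) in labelled-KO cells (adjusted p = 2.2e-11 and 8.2e-11).

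At 4 h Irak3 was lower in labelled-KO cells by -0.86 on the log2 scale (SE 0.21, adjusted p = 0.016). Without the WT library numbered 1 the difference was -0.52 (adjusted p = 0.022). The call was lost without the labelled-KO library numbered 2 (-0.86, adjusted p = 0.057) or 4 (-0.85, 0.078), in a fit of those 2 groups alone (-0.85, 0.12) and without the libraries of highest stromal marker level (-0.93, 0.12). The interaction at 4 h was -0.7 (SE 0.29, adjusted p = 0.4). From 4 to 18 h the rise of Irak3 was larger in labelled-KO cells by 0.94 (SE 0.28, adjusted p = 0.035), and 10 of 24 alternatives lost this call. They included leaving out the WT library numbered 2, 3 or 4 at 18 h, the labelled-KO library numbered 2, 3 or 4 at 4 h or the labelled-KO library numbered 3 at 18 h, the last with a value of 0.72 (adjusted p = 0.11). Without the WT library numbered 1 at 4 h the value was 0.6 (adjusted p = 0.031).

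Irak1, the kinase that is modified and degraded as the complex signals, fell and did not recover. Its WT means were 75.5 ± 3.59, 46.8 ± 3.55 and 45.7 ± 4.26 CPM at 0, 4 and 18 h (SD, n = 4), and its labelled-KO means 76.9 ± 1.64, 48.6 ± 4.12 and 36.7 ± 4.43 CPM (SD, n = 3). The log2 change at 4 h was -0.69 in WT cells and -0.66 in labelled-KO cells (adjusted p = 9.7e-08 and 1.7e-06). At 18 h the WT libraries held 48.5, 50.0, 43.0 and 41.1 CPM and the labelled-KO libraries 41.8, 33.6 and 34.7 CPM, of which 1 lay inside the WT range. The log2 difference was -0.32 (SE 0.09, adjusted p = 0.011), and it lost the call without the labelled-KO library numbered 3 (-0.26, adjusted p = 0.054) or 4 (-0.28, 0.061) and without the libraries of highest stromal marker level (-0.3, 0.089). The interaction of -0.35 at 18 h was not called (95% interval -0.59 to -0.1, adjusted p = 0.058).

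These courses changed the make-up of the IRAK transcripts. Per kilobase of the transcript used, Irak1 was the most abundant of the 4 at 0 h in WT cells (26.1 ± 1.24 CPM per kilobase, SD, n = 4), followed by Irak4 (20.5 ± 1.9), Irak2 (12.2 ± 0.429) and Irak3 (10.6 ± 0.71). Irak1 was scaled by its transcript of highest mean count (1070.7), of 2890 bases. Other Irak1 transcripts of 3825 and 3835 bases had nearly the same mean counts (1063.4 and 1062.5). Those lengths would lower the Irak1 level and raise the ratios to it. Its place above Irak4 at 0 h in WT cells thus depends on the transcript taken. At 4 h Irak2 led at 145 ± 4.89 and Irak4 was last at 7.17 ± 0.924, the lowest mean of the 10 transcripts. At 18 h Irak3 led at 76.6 ± 7.62, ahead of Irak2 at 58.5 ± 5.61. In labelled-KO cells at 18 h Irak3 (81.0 ± 19.9, SD, n = 3) and Irak2 (72.8 ± 3.52) differed by less than 1 SD of Irak3. The level of Irak3 relative to Irak1 per kilobase went from 0.407 ± 0.0426 at 0 h to 2.25 ± 0.883 at 4 h and 4.86 ± 0.303 at 18 h in WT cells, and from 0.355 ± 0.0264 to 1.2 ± 0.116 and 6.52 ± 2.17 in labelled-KO cells. Without the WT library numbered 1 the WT ratio at 4 h was 1.83 ± 0.307 (SD, n = 3). The level of Irak2 relative to Irak4 was higher in every labelled-KO library than in any WT library at each time, with means of 0.602, 20.4 and 3.34 in WT cells and 0.918, 30.8 and 6.42 in labelled-KO cells at 0, 4 and 18 h. Irak3 was scaled by its coding transcript of 3097 bases, since no length was found for the noncoding transcript of highest count, whose counts were nearly the same.

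**Figure D3:**
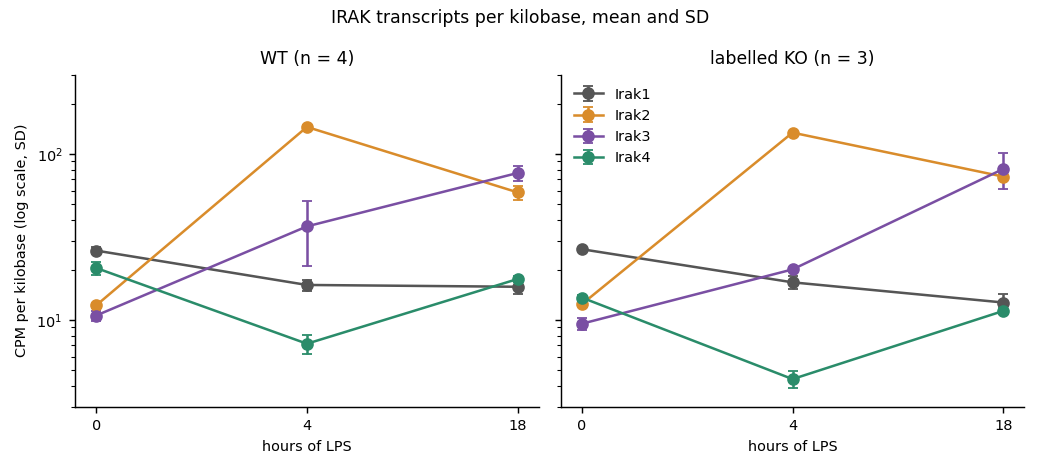
Mean level of the IRAK transcripts in CPM per kilobase (vertical axis, log scale) at 0, 4 and 18 h of LPS in WT (left, n = 4) and labelled-KO cells (right, n = 3), with bars of 1 SD. Irak2 peaks at 4 h when Irak4 is lowest (145 and 7.17 CPM per kilobase in WT cells), and Irak3 climbs above Irak1 and Irak4 in both genotypes.

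Traf6, the ubiquitin ligase that the IRAK complex activates, moved little. Its WT libraries held 37.4, 40.6, 41.5 and 38.4 CPM at 0 h, 51.0, 53.0, 52.0 and 55.4 CPM at 4 h, and 42.2, 44.5, 43.4 and 42.2 CPM at 18 h. The labelled-KO libraries held 44.0, 38.4 and 42.1 CPM at 0 h, 61.3, 62.0 and 61.1 CPM at 4 h, and 50.8, 47.0 and 52.4 CPM at 18 h. The labelled-KO libraries were above every WT library at 4 and 18 h and overlapped them at 0 h. The log2 difference was 0.22 at both times, not called at 4 h (adjusted p = 0.052) and called at 18 h (adjusted p = 0.014). The 18 h call was lost in 3 of 16 alternatives, among them without the labelled-KO library numbered 4 (0.18, adjusted p = 0.085), and the 4 h difference was called without the WT library numbered 4 (0.24, adjusted p = 0.05 when rounded).

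With LPS, Traf6 rose at 4 h by a log2 change of 0.42 in WT cells and 0.57 in labelled-KO cells (adjusted p = 1.3e-06 and 1.9e-07). Changes of this size depend on the scaling. Upper-quartile factors moved the median log2 change of all genes at 4 h from -0.17 to -0.52 in WT cells and from -0.14 to -0.47 in labelled-KO cells, so that the WT change of Traf6 became 0.08 (adjusted p = 0.21) and the labelled-KO change 0.24 (adjusted p = 0.0039). Relative to the median gene Traf6 stood higher by a similar amount under both scalings. Between genotypes of the same time the median of all genes stayed within 0.06 of 0 under TMM, median-of-ratios and upper-quartile factors.

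**Figure D4:**
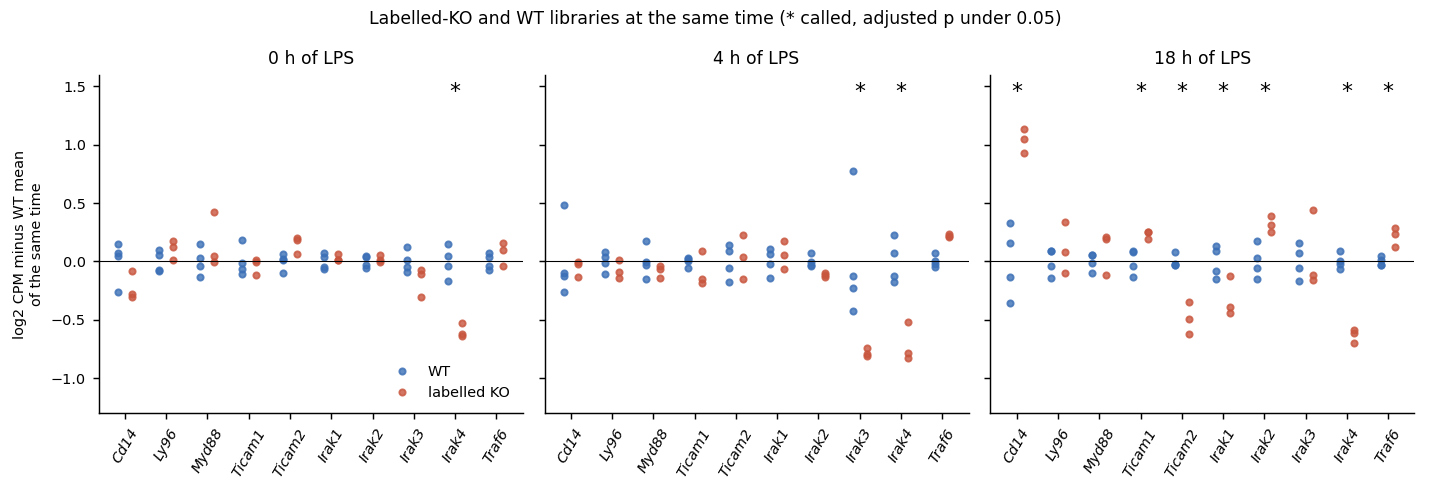
Log2 CPM of every library minus the WT mean of the same time (vertical axis) for the 10 transcripts at 0, 4 and 18 h of LPS (panels), with WT libraries in blue (n = 4) and labelled-KO libraries in red (n = 3), and a star where the genotype difference was called (edgeR adjusted p under 0.05). Irak4 is starred at every time, Irak3 at 4 h, and 7 transcripts at 18 h, with Cd14 farthest from the WT mean.

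Across the 10 transcripts, Cd14 had the highest level per kilobase and Myd88 the next in each of the 6 groups. At 18 h in WT cells Cd14 stood at 279 ± 58.2 and Myd88 at 112 ± 5.58 CPM per kilobase (SD, n = 4). Traf6 had the lowest mean at 0 and 18 h in both genotypes, at 6.39 ± 0.309 and 6.98 ± 0.179 CPM per kilobase in WT cells. Over the 6 group means the closest pair of courses was Ticam2 with Irak1, at a root mean square difference of 0.187 on the centred log2 scale. Myd88 with Irak2, which both peaked at 4 h, came next at 0.262. The measure is not scaled, so transcripts that change little lie close by it. The SD of the group means was 0.353 for Ticam2 and 0.394 for Irak1, against 1.24 for Myd88 and 1.46 for Irak2. Ticam2 and Irak1 both fell, but in WT cells at 4 h by -0.2 and -0.69. Among 8603 genes with a mean of at least 5 CPM, the gene nearest in course to Ticam1 was Tirap, which encodes the adaptor that brings MyD88 to TLR4, at 0.034. The nearest to Irak2 were Lacc1, Eif2ak2 and Dtx3l (0.0649, 0.0761 and 0.0867), to Irak1 Glod4 and Akt1 (0.0317 and 0.0402), to Myd88 Dnaja1 (0.0572) and to Cd14 Whamm, Mafk and Aim2 (0.14, 0.146 and 0.172). The nearest to Irak3 was Cep83 (0.186) and to Irak4 Ccdc66 (0.173), little farther than Aim2 was from Cd14.

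The other genes of the TLR4 route were taken as a list of 42, of which 41 were tested (Sarm1 was not). At 4 h of LPS 22 of the 41 were higher and 11 lower in WT cells, and 22 higher and 8 lower in labelled-KO cells, where 78.1% and 75.0% of all genes were called. Traf1, a TRAF family member, rose most in WT cells (log2 change 8.43), from a low level of 1.23 ± 0.578 CPM at 0 h (SD, n = 4). The deubiquitinase Tnfaip3 (6.42) and the ligase Peli1 (4.4), which acts on IRAK1, also rose. Peli2 (-3.31), the TAK1 partner Tab1 (-2.11) and Tlr4 itself (-1.03) fell. All of these had an edgeR adjusted p of 6.3e-07 or less. At 18 h 22 were higher and 11 lower in WT cells and 23 higher and 7 lower in labelled-KO cells (71.1% and 73.0% of all genes), and from 4 to 18 h 10 rose and 22 fell in WT cells and 9 rose and 16 fell in labelled-KO cells (71.7% and 65.4%). The shares of the 41 called in either direction lie near those of all genes, but the split by direction against 0 h does not. Of all genes, 35.1% were higher and 43.0% lower in WT cells at 4 h, and 33.5% and 41.5% in labelled-KO cells. At 18 h against 0 h, 34.8% were higher and 36.3% lower in WT cells, and 34.5% and 38.5% in labelled-KO cells. The list was chosen by role and not tested as a set. The receptor was not called between genotypes at any time. Its WT means were 190.3 ± 20.2, 93.2 ± 22.6 and 152 ± 19.3 CPM at 0, 4 and 18 h (SD, n = 4), and its labelled-KO means 182 ± 32.8, 96.3 ± 5.35 and 179 ± 15.1 CPM (SD, n = 3), with a log2 difference at 18 h of 0.24 (adjusted p = 0.22).

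Between genotypes none of the 41 was called at 0 h by edgeR (3.98% of all genes), where 2 were higher at an unadjusted p under 0.05. At 4 h 2 were higher (5.56% of all genes called, 2.87% higher), Traf3 (log2 difference 0.55, adjusted p = 0.013) and Otud7b (0.42, adjusted p = 0.013). At 18 h 14 of the 41 were higher and none lower. Their share called in either direction was near the 32.2% of all genes. The split by direction was not, since 16.6% of all genes were higher and 15.6% lower. The list was not tested as a set against all genes. The median difference of the 41 was 0.17 against -0.01 over all genes. The largest were Traf1, at 103 ± 10.2 CPM in WT (SD, n = 4) and 185 ± 23.9 CPM in labelled-KO cells (SD, n = 3; 0.84, adjusted p = 0.00018), Traf5 (0.79, adjusted p = 0.00027) and Tnfaip3, at 201 ± 10.8 and 341 ± 14.1 CPM (0.77, adjusted p = 1.3e-06). The interaction at 18 h against 0 h was called for 10 of the 41, all larger in labelled-KO cells, led by Traf1 (1.42), Tnfaip3 (0.9) and Traf5 (0.82). Of all genes 17.6% were called, 8.57% larger and 9.0% smaller. The value of Traf1 rests on low 0 h levels, 1.23 ± 0.578 CPM in WT and 0.808 ± 0.189 CPM in labelled-KO cells (SD). From 4 to 18 h the interaction was called for 6 larger, led by Traf1 (0.79), the kinase Tbk1 (0.56) and Tnfaip3 (0.54). Traf3 was smaller (-0.7, adjusted p = 0.01). Of all genes 10.8% were called, 6.26% larger and 4.58% smaller. At 4 h the interaction was called by edgeR for none (0.798% of all genes), with 4 larger and 2 smaller at an unadjusted p under 0.05.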

How the data were processed

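RNA of 21 mouse macrophage libraries was sequenced, per the labels' protocols, from KAPA mRNA HyperPrep libraries. Per the submitters' processing notes CASAVA 1.8.2, HISAT2 2.1.0 and the mm10 build were used; the counting tool and its use of strand and of shared reads were not given in the sources used here. The authors deposited estimated counts for each RefSeq transcript, which moved in steps of 0.5. The planned count test assumed whole numbers, so they were rounded, a value ending in 0.5 upward. Of 42361 transcript IDs 93 had no gene name, held 0.232 to 2.229% of the counts and were left out. The transcript of highest mean count stood for each of 25067 genes, and for genes with several transcripts the second carried nearly the same counts as the first (median ratio 0.9923). Deposited columns totalled 23478281.5 to 55852932 per library. Irak1 overlaps 2 microRNA genes with almost no counts, and Irak3 overlaps 3 long noncoding RNA genes; their reads cannot be told apart from those of the host gene here.

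edgeR 4.0.16's quasi-likelihood test (R 4.3.3, limma 3.58.1) was fitted to all 21 libraries with 6 group means, TMM factors and the default filter, which kept 12529 genes, and p-values were Benjamini-Hochberg adjusted over all of them in each of 12 comparisons. Standard errors are the log2 change divided by the square root of F and are not given near 0; 95% intervals are 1.96 standard errors either side. Ratios between genes were taken per kilobase in each library and then averaged. On simulated counts edgeR was tested with known changes. Alternatives were DESeq2 1.42.0, limma-voom, other scaling factors, no filter, summed transcripts, the compared groups alone, a replicate block, each library left out in turn, and the library of highest stromal marker level left out of each group. Figures were drawn with matplotlib 3.10.9.

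To see whether a shared replicate number marks paired libraries, deviations from the group means were correlated between same-numbered libraries: in WT cells at 0 and 4 h the 4 pairs gave 0.23, 0.32, 0.24 and 0.24, those of labelled-KO cells at 4 and 18 h gave 0.4, 0.1 and 0.5, and every other set held a value under 0.1. What the numbers stand for is not stated in the labels. The block changed no call in the WT comparison of 4 h with 0 h or the labelled-KO comparison of 18 h with 4 h. No pair of libraries of a group agreed within sampling noise.

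The members, the pathway list, the tests and the alternatives were chosen with earlier results of these data known. All 10 members are named; from the pathway list up to 3 called genes of each sign per comparison with a mean of at least 5 CPM, and Tlr4, are named; and for each member the 3 genes nearest in course were found, of which a part is printed. Promoter sequences are from RefSeq on GRCm38.p6. Ly96 had no entry in the source used. Windows on chromosome 18, where Cd14 and Ticam2 lie, were left out of the search of the members, so these genes were not searched.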

Additional observations from a re-analysis of the deposited data

Results flagged for a closer look

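In each of the 30 groups of 4 WT libraries (10 transcripts at 3 times) the gap between the highest or lowest library and its nearest neighbour, as a share of the group's range, was set against Dixon's 95% critical value. It passed in 1 group, Ticam2 in WT cells at 18 h, with a share of 0.926: the library numbered 2 stood at 60.1 CPM and the others between 55.4 and 55.7 CPM. About 1 in 20 such groups would be picked out by chance. The WT library numbered 1 at 4 h gave shares of 0.822 for Cd14 and 0.821 for Irak3, just under that value, though its gaps in CPM were larger. All labelled-KO libraries had less Ticam2 at 18 h, at 36.8 to 44.5 CPM.

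For several transcripts the change with LPS differed between genotypes by the interaction term of edgeR's quasi-likelihood fit. At 18 h against 0 h the log2 difference between the changes, labelled-KO minus WT, was 1.24 for Cd14 (adjusted p = 0.00083), -0.63 for Ticam2 (adjusted p = 0.0019) and 0.29 for Irak2 (adjusted p = 0.049). From 4 to 18 h it was 1.1 for Cd14 (adjusted p = 0.0032), -0.52 for Ticam2 (adjusted p = 0.012), 0.43 for Irak2 (adjusted p = 0.0078) and 0.94 for Irak3 (adjusted p = 0.035). These 2 sets of comparisons share the 18 h libraries. Without the libraries of highest stromal marker level Irak2 (0.42, adjusted p = 0.093) and Irak3 (1.05, adjusted p = 0.13) lost the call from 4 to 18 h. The values for Cd14 and Ticam2 kept their calls in all 24 alternatives of each comparison.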

How the results depend on the processing

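Over 120 pairs of a transcript and a comparison, 2220 alternative values were computed, of which 2129 kept the side of the threshold and the direction, 75 lost a call, 16 gained 1 and 0 reversed a called direction. The changes fell in 22 of the 120. The genotype calls of Cd14, Ticam2, Irak2 and Irak4 at 18 h and of Irak4 at 0 h were kept in all 16 alternatives of each. For the counts of transcripts called, labelled-KO against WT at 4 h gave 1 higher in place of 0 with median-of-ratios factors, with upper-quartile factors and with DESeq2 (Traf6 in each), and 0 to 1 with a library left out. The 2 lower became 1 in a fit of the compared groups alone, 0 without the libraries of highest stromal marker level and 1 to 2 with a library left out. At 18 h the 4 higher became 2 without an expression filter and 2 without the libraries of highest stromal level, and 2 to 4 with a library left out. For the interaction at 18 h the 2 higher became 3 with DESeq2, which added Ticam1 (0.32, adjusted p = 0.05 when rounded), and 1 with upper-quartile factors, 1 without a filter, 1 in a fit of the compared groups, 1 without the libraries of highest stromal level and 1 with the replicate block within genotype (Irak2 at 0.29, adjusted p = 0.055), and 1 to 2 with a library left out; the 1 lower became 2 with upper-quartile factors, which added Irak1 at -0.38, and 1 to 2 with a library left out. For the interaction from 4 to 18 h the 3 higher became 1 without the libraries of highest stromal level (Irak2 and Irak3 lost) and 2 with limma-voom (Irak3 at 0.84, adjusted p = 0.057) and in a fit of the compared groups (Irak3 at 0.93, adjusted p = 0.075), and the 1 lower became 2 with upper-quartile factors and 1 to 2 with a library left out. The cause of these changes was not tested, but fits that leave out libraries have fewer samples. No other call changed under a replicate block. Upper-quartile factors also moved the share of higher genes among all calls at 4 h from 45.0 to 32.6% in WT and from 44.7 to 33.4% in labelled-KO cells, and at 18 h from 48.9 to 38.6% in WT cells, and ended the calls of Traf6 for WT at 4 h (0.08), for labelled-KO cells at 18 h against 0 h (0.05) and for WT from 4 to 18 h (-0.13), and of Ticam2 for WT from 4 to 18 h (-0.1).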
